A study of Mus musculus with 6 samples.

Results

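The miR-34 and miR-449 family was taken as every mouse miRNA on the array whose name starts with miR-34a, miR-34b, miR-34c or miR-449, both arms included. It comprised 8 of the 566 mouse miRNAs measured, read by 20 of 1672 mouse probes: mmu-miR-34a-5p from the miR-34a locus, mmu-miR-34b-5p, mmu-miR-34b-3p, mmu-miR-34c-5p and mmu-miR-34c-3p from the miR-34b/c locus, and mmu-miR-449a-5p, mmu-miR-449b and mmu-miR-449c-5p from the miR-449 locus. The members were measured in LLC1 cells, a line from a mouse Lewis lung carcinoma, to compare growth as a 2D monolayer on plastic with growth in a laminin-rich extracellular matrix (lr-ECM 3D). In the 2D group, cells grew in serum-supplemented medium for 48 h. In the lr-ECM 3D group, cells of the same line grew for 48 h in the same kind of medium with Geltrex at 0.5 mg/ml, plated over agarose. Each group had 3 biological replicates with 1 one-colour Agilent miRNA array each, and no sample of a tumour, a second cell line or another matrix was part of the comparison. No miRNA that defines LLC1 cells was available, so the identity of the line was not checked against the signals.

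Each miR-34 or miR-449 hairpin can give a mature miRNA from its 5′ side (5p) and one from its 3′ side (3p), and pairing of the seed, bases 2 to 8 of the mature miRNA, with mRNAs directs repression. The miR-34 genes are known as direct targets of the tumour suppressor p53, and their products repress mRNAs of cell cycle and survival proteins. MiR-34b and miR-34c are made from one shared transcript and miR-34a from its own gene. The miR-34b/c and miR-449 loci are best known from multiciliated airway epithelium, while miR-34a is found in many tissues.

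The mature sequences are shown because the printed 5p arms of all 3 loci share 1 seed and the 3p arms carry another. RefSeq entries on mouse assembly GRCm38.p6 matched 6 of the 8 members; miR-34c-5p and miR-449b were not matched. Capitals mark the seed.
mmu-miR-34a-5p: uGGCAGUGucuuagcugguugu
mmu-miR-34b-5p: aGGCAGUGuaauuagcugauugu
mmu-miR-449a-5p: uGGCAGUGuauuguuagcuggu
mmu-miR-449c-5p: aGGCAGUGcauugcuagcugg
mmu-miR-34b-3p: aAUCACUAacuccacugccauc
mmu-miR-34c-3p: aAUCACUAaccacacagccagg
The seed of the 5p arms occurred in 4 of 1679 mature mouse miRNA names with a RefSeq sequence (0.238%), which were the 4 members printed with it. The seed of the 3p arms occurred in 2 (0.119%), again both members of the family. MiR-34b-3p and miR-34c-3p had the same base at 17 of 22 positions counted from the 5′ end. MiR-34a-5p and miR-34b-5p matched at 11 of 22 positions, and miR-34a-5p and miR-449a-5p at 15 of 22. MiR-34b-5p matched miR-449a-5p at 10 of 22 positions and miR-449c-5p at 10 of 21. All these counts allow no gap, so an extra base in one sequence puts the later bases out of register. MiR-34b-5p has 23 bases and miR-34a-5p 22, so their count understates how alike they are. No alignment with gaps was made. Cross-hybridisation between the members was not tested.

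The hairpin of Mir34b is shown with both arms in capitals, since its 5p arm passed the detection filter and its 3p arm did not. It lies at chr9:51103562-51103645 on the minus strand of GRCm38.p6, inside the spans of the genes Btg4 and Hoatz, and 451 bases separate it from the Mir34c hairpin on the same strand.
Mir34b: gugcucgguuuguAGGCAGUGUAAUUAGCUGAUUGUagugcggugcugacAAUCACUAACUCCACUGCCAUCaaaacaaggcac
Mir34a lies on chromosome 4 within no other listed gene, and Mir449a, Mir449b and Mir449c lie on chromosome 13 within Cdc20b.

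The arrays differed in overall brightness. The mean signal over miRNA probes lay between 5.03 and 40.4 linear units for 2D and between 37.8 and 49.9 for lr-ECM 3D, and 48 to 101 mouse miRNAs were well above background on a 2D array against 120 to 151 on a lr-ECM 3D array. 2D replicate 2 was the dimmest, was multiplied by 4.43 in the scaling to the mean of the 2D arrays, and had correlations of 0.868 and 0.878 with the other 2D arrays, which correlated at 0.992. Each group lay on a slide of its own with its own scan day, so culture, slide and scan day cannot be told apart. A probe was taken as well above background on an array when at least 50% of its spots carried the scanner's flag for it. A miRNA was tested when it was so on all 3 arrays of at least one group.

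The 5p arms of miR-34b and miR-34c were the members detected on all 6 arrays. Both were well above background on every array, and they were the 2 of 8 members that passed the filter, which 120 of 566 mouse miRNAs passed. Before scaling, mmu-miR-34b-5p had a signal of 131.6, 48.3 and 235 linear units on 2D replicates 1, 2 and 3 and of 272, 231 and 223 on lr-ECM 3D replicates 1, 2 and 3. MiR-34c-5p had a signal of 113, 59.8 and 193 on the 2D arrays and of 223, 189 and 185 in lr-ECM 3D. For both, 2D replicates 2 and 1 were the lowest, while 2D replicate 3 lay within the range of the lr-ECM 3D arrays, so the groups overlapped.

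After scaling, the log2 signal of miR-34b-5p was 7.10, 7.74 and 7.02 in 2D against 6.92, 7.05 and 7.04 in lr-ECM 3D. For miR-34c-5p it was 6.87, 8.05 and 6.73 against 6.64, 6.77 and 6.76. 2D replicate 2, the lowest array before scaling, became the highest after it, and the other 5 arrays lay close together with the groups overlapping.

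MiR-34b-5p had a mean log2 signal of 7.29 ± 0.40 over the 2D arrays against 7.00 ± 0.07 over the lr-ECM 3D arrays (SD, n = 3). Its difference, lr-ECM 3D minus 2D, was −0.28 on the log2 scale (SE 0.22, 95% interval −0.84 to 0.27, limma adjusted p = 0.428), a fold of 0.823 with an interval from 0.560 to 1.21. MiR-34c-5p had means of 7.22 ± 0.72 and 6.72 ± 0.07, and its difference was −0.50 (SE 0.37, 95% interval −1.42 to 0.43, limma adjusted p = 0.407), a fold of 0.709 with an interval from 0.373 to 1.35. Neither miRNA passed the test. The call rule was a limma adjusted p under 0.05 with at least a 2-fold change. It held for 0 of the 2 tested members and for 14 of all 120 tested miRNAs (11.7%). Of the 120, 13 (10.8%) were called higher and 1 (0.833%) lower in lr-ECM 3D. With a filter on all 6 arrays, which both members passed, 0 of all tested miRNAs were called. The 11.7% is therefore not a like benchmark for 2 miRNAs detected on every array. At an unadjusted limma p under 0.05 there were 0 members and 29 of the 120 (24.2%). The methods' t-test called 0 members, and 17 of the 120 (14.2%) unadjusted or 12 (10%) after Benjamini-Hochberg adjustment. Groups that did not overlap after scaling were found for 0 of the 2 members and for 51 of the 120 (42.5%). The interval of miR-34b-5p left out a 2-fold change in either direction, and that of miR-34c-5p included a 2-fold fall. Leaving out 2D replicate 2 brought the differences to −0.05 and −0.08.

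**Figure D1:**
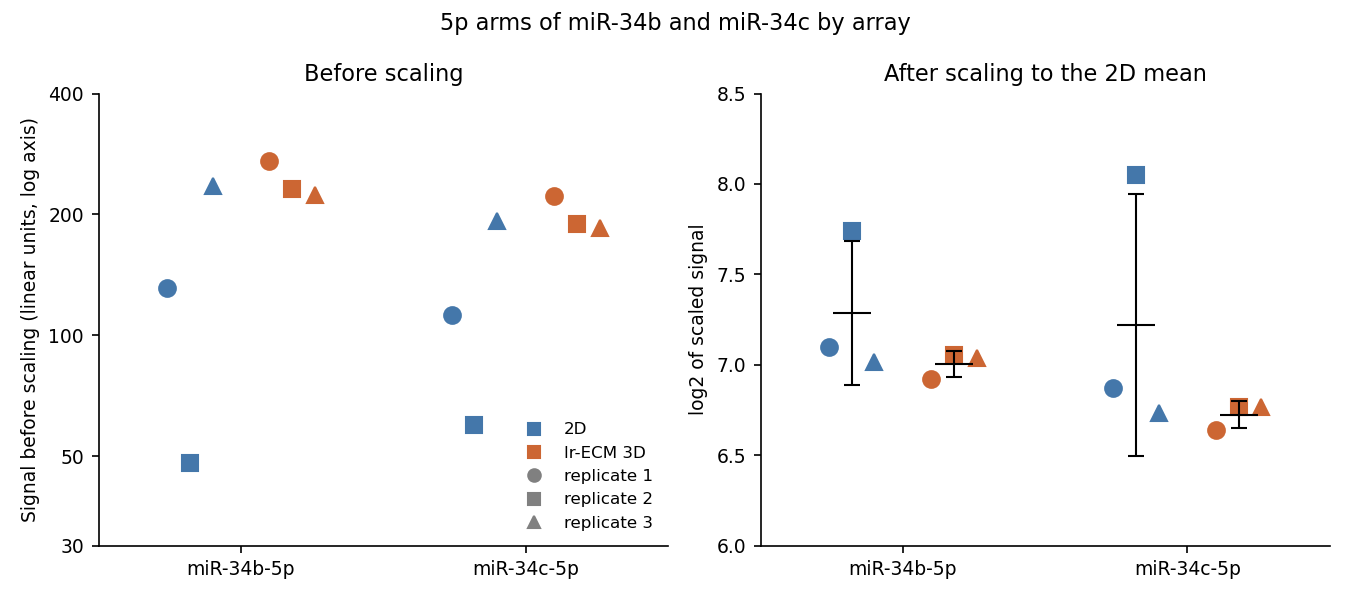
Signal of miR-34b-5p and miR-34c-5p on each array, before scaling in linear units on a log axis (left) and as log2 after scaling to the mean of the 2D arrays (right); symbols mark replicates, and the black lines give the mean ± SD of 3 arrays. 2D replicate 2 is lowest before scaling, at 48.3 and 59.8, and highest after it, at a log2 of 7.74 and 8.05.

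The direction of these differences depended on the scaling. Without scaling, the log2 difference was 1.08 for miR-34b-5p and 0.86 for miR-34c-5p, while the median over all tested miRNAs was 1.24. With the log2 values as deposited it was 0.58 and 0.35 beside a median of 0.76. With the normexp background correction and an offset of 50 linear units it was 0.38 and 0.25 beside a median of 0.41. With the 75th percentile of detected probes as the reference, miR-34b-5p lay at 0.04 and miR-34c-5p at −0.18 beside a median of 0.21. Under the reported scaling the median over all tested miRNAs was −0.11, with 44 above 0 and 76 below. Relative to the median of the same setting, the difference of miR-34b-5p was −0.17 as reported and ranged from −0.73 to −0.01 over the alternatives, and that of miR-34c-5p was −0.39 and ranged from −1.03 to −0.04. A factor applied to a whole array moves a miRNA and the median alike, and a change of test moves neither, so many of these settings had to give nearly the reported value. The adjusted p of the 2 miRNAs over the alternatives ranged from 0.132 to 0.986 and from 0.148 to 0.986.

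**Figure D2:**
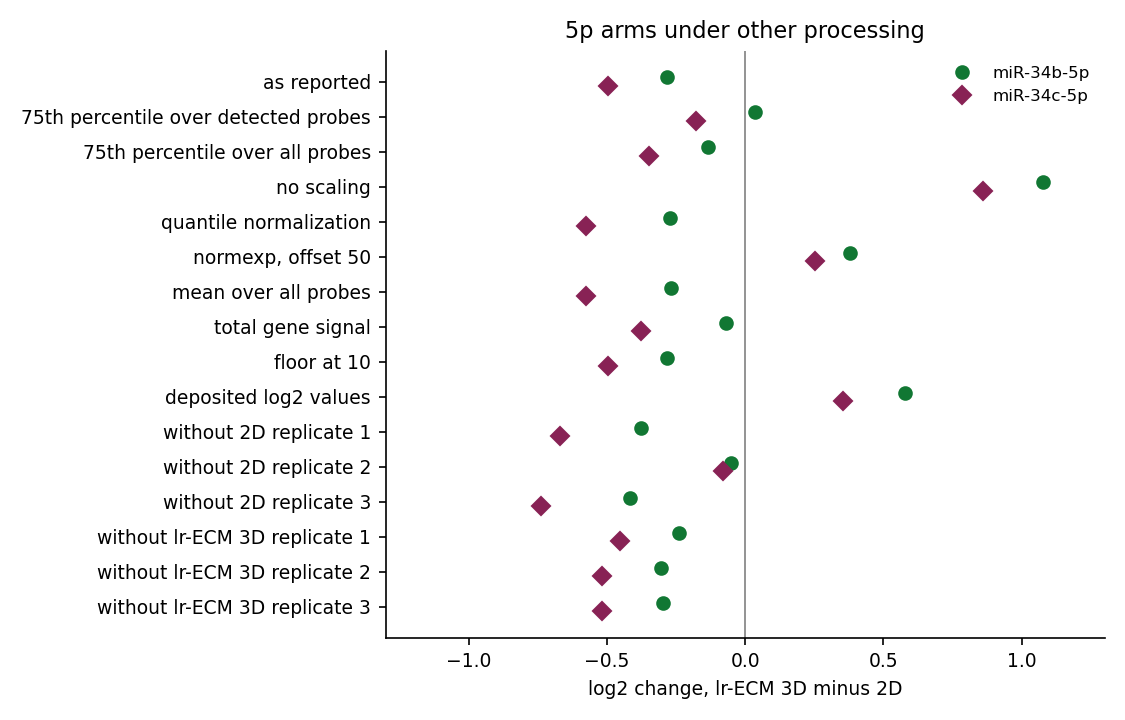
Difference of log2 signal, lr-ECM 3D minus 2D, for miR-34b-5p (circles) and miR-34c-5p (diamonds) under the reported processing, other scalings and summaries, and with each array left out. Points lie to the right of 0 for both miRNAs with the deposited log2 values, normexp or no scaling, and close to 0 without 2D replicate 2.

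The brightest 2D array gave a comparison between arrays of more like brightness. Set against 2D replicate 3, whose mean signal of 40.4 lay between those of the lr-ECM 3D arrays, the unscaled signal of miR-34b-5p was 1.16, 0.983 and 0.949 times as high on lr-ECM 3D replicates 1, 2 and 3. For miR-34c-5p the ratios were 1.16, 0.981 and 0.957. The ratios lay above 1 on the brighter lr-ECM 3D replicate 1 (mean signal 49.9). They lay below 1 on lr-ECM 3D replicates 2 and 3 (38.7 and 37.8). After scaling, each of these arrays lay on the other side of 2D replicate 3 for both miRNAs. The ratios rest on a single 2D array, so no test was made.

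MiR-34b-5p and miR-34c-5p, which come from the same transcript, kept nearly the same relation to each other on 5 of 6 arrays. The log2 signal of miR-34c-5p minus that of miR-34b-5p was −0.22, 0.31 and −0.28 in 2D against −0.29, −0.29 and −0.27 in lr-ECM 3D. Levels of different probes cannot be compared, but the difference within an array does not change with a factor applied to the whole array. 2D replicate 2 was the one array where it was above 0. The change of this difference between lr-ECM 3D and 2D was −0.21 (exact two-sided permutation test over 6 arrays, p = 0.2, where 0.1 is the smallest p the design allows), and −0.03 without 2D replicate 2.

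Each of the 2 miRNAs was read by a second probe, which showed how far the values depended on the probe. The second probe of miR-34b-5p had a difference of −0.25 between lr-ECM 3D and 2D, against −0.28 for the first, but on 2D replicate 2 only 2 of its 8 kept spots were well above background. The second probe of miR-34c-5p had a difference of −0.73 against −0.50. The log2 ratio of the first to the second probe of miR-34c-5p was 0.97, 0.66 and 1.04 in 2D against 1.08, 1.09 and 1.19 in lr-ECM 3D, so the groups did not overlap for this ratio (exact permutation test, p = 0.1, the smallest possible). How often the probe ratios of miRNAs outside the family separate the groups was not examined, so whether this is unusual is not known. Over the kept spots of a probe, the coefficient of variation of the 2 chosen probes was between 2.91% and 19.2%.

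The 3p arms of miR-34b and miR-34c had signals near background, and each lr-ECM 3D array had a higher signal than any 2D array. MiR-34b-3p had an unscaled signal of −2.12, −2.05 and 4.76 linear units in 2D and of 29.4, 17.4 and 16.5 in lr-ECM 3D; values below 0 arise from background subtraction. It was well above background on lr-ECM 3D replicate 1 and on no other array. MiR-34c-3p had a signal of −4.61, −7.89 and 3.31 in 2D and of 14.1, 8.78 and 8.47 in lr-ECM 3D, and was well above background on none. For both arms, 2D replicate 3 was the highest 2D array and lr-ECM 3D replicate 1 the highest array in all. The exact two-sided permutation test on the unscaled signals gave p = 0.1 for each arm, the smallest p possible with 3 arrays against 3. Among the 446 mouse miRNAs that did not pass the filter, 75 (16.8%) had an unscaled signal on every lr-ECM 3D array above that on every 2D array, as had 2 of the 6 such members. After scaling 28 of the 446 (6.28%) did, and the same 2 members were among them.

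Both 3p arms could be set against the negative control spots of the same array. The mean signal of the chosen miR-34b-3p probe lay −1.54, −1.54 and −0.40 SDs from the mean of the negative controls in 2D and 5.22, 2.40 and 2.50 SDs above it on the lr-ECM 3D arrays. Its second probe lay 3.26, 1.23 and 0.43 SDs above the controls on the lr-ECM 3D arrays and below them on all 2D arrays. The chosen miR-34c-3p probe lay −1.91, −2.43 and −0.63 SDs from the controls in 2D and 1.89, 0.79 and 0.78 SDs above them in lr-ECM 3D, while its second probe was below the controls on all 6 arrays. Before scaling, each of the 4 probes of the 3p arms had its 3 highest signals in lr-ECM 3D. The negative controls themselves had a mean of 7.37 to 8.02 linear units in 2D and of 4.52 to 5.35 in lr-ECM 3D, and the part of background and of array brightness in these differences was not tested. Against 2D replicate 3 alone, the unscaled signal of miR-34b-3p was higher by 24.6, 12.6 and 11.7 linear units on lr-ECM 3D replicates 1, 2 and 3, and that of miR-34c-3p by 10.8, 5.47 and 5.16.

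No fold is given for either 3p arm. After scaling and a floor at a log2 of 0, miR-34b-3p was at 0, 0 and 1.39 in 2D and at 3.71, 3.32 and 3.28 in lr-ECM 3D, but the lowest scaled signal well above background on the 2D arrays lay at 4.95, 7.02 and 3.80, above each of these values. A level of miR-34b-3p in 2D equal to that in lr-ECM 3D could therefore have gone without the flag on these 2D arrays. This limit concerns the flag, not the mean over the spots of a probe. Neither arm passed the filter. With no filter, both were called (limma adjusted p = 0.0359 for miR-34b-3p and 0.0246 for miR-34c-3p), as were 32 of the 566 miRNAs (5.65%), 28 of them higher (4.95%), on signals that were not well above background on 5 of 6 arrays for miR-34b-3p and on all 6 for miR-34c-3p. With the normexp correction the differences of the arms were 0.05 and −0.01. That setting adds 50 linear units to every spot before the log2, more than any signal of these arms, which by itself shrinks their log2 differences. It therefore cannot show whether the differences come from background.

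**Figure D3:**
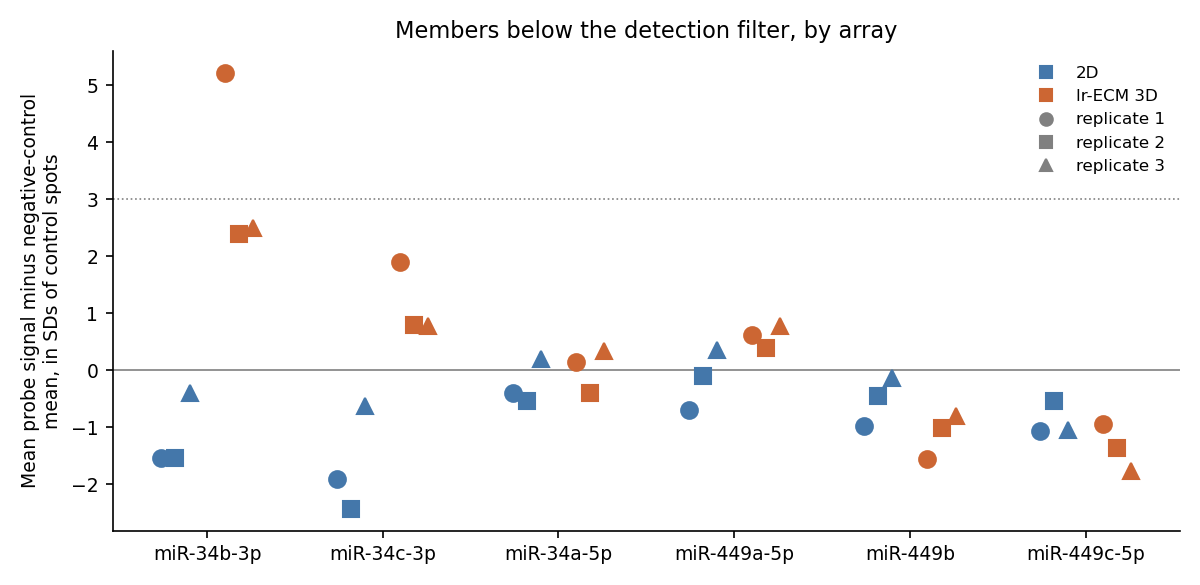
Mean signal of the chosen probe of each member below the detection filter, minus the mean of the negative control spots of the array, in SDs of those spots; symbols mark replicates, the solid line is the control mean and the dotted line lies 3 SDs above it. MiR-34b-3p reaches 5.22 on lr-ECM 3D replicate 1 and stays between 2.40 and 2.50 on the other lr-ECM 3D arrays, while both 3p arms lie below 0 on all 2D arrays.

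The arms were also compared by the share of their spots well above background. Of the spots of the miR-34b-3p and miR-34c-3p probes, 0 of 39 were well above background on each 2D array, against 13, 0 and 1 of 40 on lr-ECM 3D replicates 1, 2 and 3. The mean share in lr-ECM 3D was 11.7% ± 18.1 (SD, n = 3) against 0% in 2D, and without lr-ECM 3D replicate 1 the difference fell from 11.7 to 1.25 percentage points. With a limit of 3 SDs over the negative controls in place of the flag, 0 spots passed on each 2D array and 17, 3 and 3 of 40 on the lr-ECM 3D arrays, a difference of 19.2 points. The negative controls had a lower mean and a lower SD on the lr-ECM 3D arrays. In linear units this limit was therefore lower there, and the groups were counted against unlike limits. The 13 spots of lr-ECM 3D replicate 1 comprised 9 and 3 spots of the 2 miR-34b-3p probes and 1 spot of miR-34c-3p. Of the spots of the miR-34a, miR-34b and miR-34c 5p probes, 40 of 59, 30 of 56 and 37 of 57 were well above background in 2D, and in lr-ECM 3D 37 of 57, 40 of 60 and 40 of 60 were. These shares were 62.1% ± 7.52 and 66.1% ± 1.01 (SD, n = 3), a difference of 3.99 points that turned to −0.27 without 2D replicate 2. The 5p share could hardly move, since in both groups every miR-34c-5p spot and no miR-34a-5p spot was well above background. For miR-34b-5p, 51 of 57 spots were so in 2D and 60 of 60 in lr-ECM 3D. The scanner software's own detection call, which combines the probes of a miRNA, listed miR-34b-3p as detected on lr-ECM 3D replicates 1 and 3 and miR-34c-3p on no array.

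**Figure D4:**
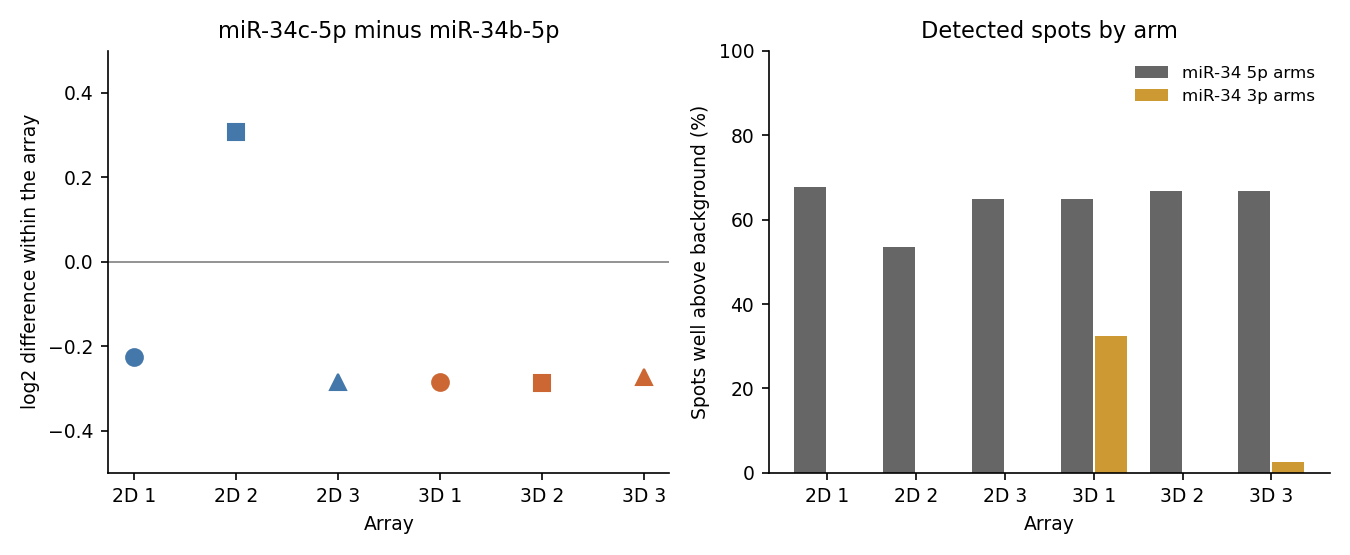
Left, log2 signal of miR-34c-5p minus that of miR-34b-5p within each array; right, percentage of spots well above background on each array for the probes of the miR-34 5p arms and 3p arms. 2D replicate 2 alone lies above 0 on the left, and lr-ECM 3D replicate 1 carries 13 of the 14 detected 3p spots on the right.

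MiR-34a-5p, the product of the separate miR-34a locus, was well above background on none of the 6 arrays. Its unscaled signal was 5.34, 4.53 and 8.64 linear units in 2D against 6.01, 2.34 and 6.38 in lr-ECM 3D, so the groups overlapped (exact permutation test, p = 0.6). On every array its chosen probe lay within 0.53 SDs of the mean of the negative controls, and 0 of the 59 kept spots in 2D and 0 of 60 in lr-ECM 3D were well above background. The log2 signal of miR-34a-5p minus the mean of miR-34b-5p and miR-34c-5p was −4.51, −3.57 and −4.62 in 2D and −5.35, −6.48 and −4.99 in lr-ECM 3D. This difference changed by −1.37 (exact two-sided permutation test, p = 0.1, the smallest possible), but one side of it was a signal at background, and its sign turned with a floor at 10 and with the software's total gene signal, where it was 0.05 and 0.22. A change of the miR-34a locus relative to the miR-34b/c locus was thus not measurable at this signal.

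The miR-449 members, which carry the same seed as miR-34a-5p where their sequence was matched, were at background throughout. Of the spots of their 10 probes, 0 of 176 in 2D and 0 of 179 in lr-ECM 3D were well above background, and every probe mean lay between −3.10 and 0.77 SDs of the negative control mean. MiR-449a-5p had an unscaled signal of 3.38, 7.36 and 9.72 in 2D and of 8.16, 6.66 and 8.43 in lr-ECM 3D, with overlap between groups (exact permutation test, p = 0.8). MiR-449b had 1.58, 5.05 and 6.51 in 2D and −1.82, −0.88 and 1.06 in lr-ECM 3D. It was lower on every lr-ECM 3D array (exact permutation test, p = 0.1, the smallest possible), on signals below the negative control mean on all 6 arrays. MiR-449c-5p lay between −3.45 and 4.51 on all arrays (exact permutation test, p = 0.3). Groups that do not overlap in either direction were found for 3 of the 6 members below the filter and for 149 of all 446 such miRNAs (33.4%).

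Among the tested miRNAs outside the family, those most like miR-34b-5p in log2 signal over the 6 arrays were miR-98-5p, miR-27a-3p and miR-296-5p, with Pearson correlations of 0.987, 0.986 and 0.986. The same 3 came first for miR-34c-5p, at 0.984, 0.988 and 0.987, and the 2 members correlated with each other at 0.998, or at 0.971 without 2D replicate 2. Each member had a correlation over 0.9 with 24 of the 118 other miRNAs compared. These values describe 6 arrays that share their scaling. Without 2D replicate 2, the correlations with the 3 miRNAs outside the family fell to between 0.299 and 0.701.

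Other miRNAs tied to p53 were read in the same fit. Of 10 listed miRNAs on the array that are transcribed or processed under p53, 3 passed the filter and 6 were well above background on no array. MiR-107-3p, made within a pantothenate kinase gene, had a difference of 0.22 (limma adjusted p = 0.349), miR-16-5p one of −0.09 and miR-15a-5p, clustered with a copy of miR-16, one of −0.40 (limma adjusted p = 0.214). Of 5 miRNAs reported to target the p53 mRNA, 3 passed, from −0.36 for miR-125b-5p to −0.00 for miR-125a-5p. Of 5 listed guide arms of the miR-17-92 cluster matched by name, a cluster that p53 is reported to repress, 5 passed, from −0.21 for miR-19b-3p to −0.03 for miR-19a-3p. Outside the list, the array's entry mmu-miR-17_v17.0 had a difference of −0.11 (limma adjusted p = 0.572) and miR-17-3p, the other arm of its hairpin, one of −0.92 (limma adjusted p = 0.260); both were singled out after their values were seen. In all, 0 of these 11 tested miRNAs were called, against 11.7% of all tested miRNAs, and 0 had an unadjusted p under 0.05 in limma. With a filter on all 6 arrays, 0 of all tested miRNAs were called. Their median difference was −0.16, with 1 above 0 and 10 below, beside a median of −0.11 over all tested miRNAs. Without the filter, miR-143-3p (−1.35, limma adjusted p = 0.0189) and miR-192-5p (1.77, limma adjusted p = 0.00295) of the first list were among the 32 of 566 called (5.65%). MiR-192-5p was well above background on 0 arrays and at the floor on all 2D arrays, and miR-143-3p was well above background on 1 array of each group.

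**Figure D5:**
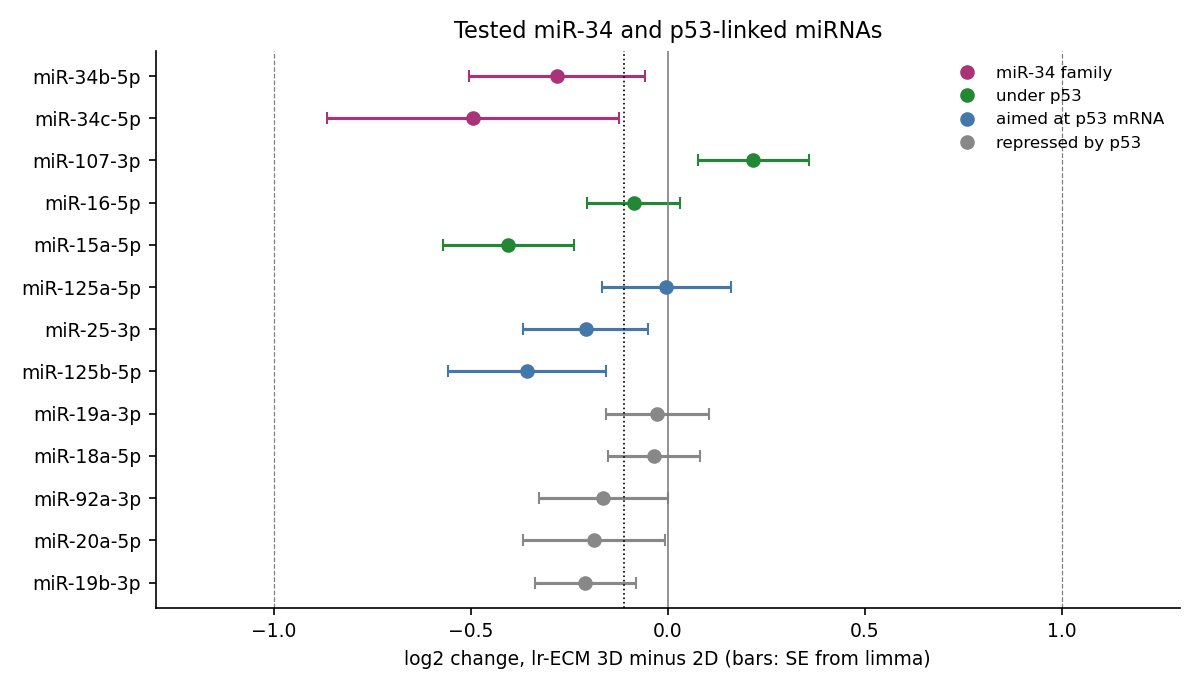
Difference of log2 signal, lr-ECM 3D minus 2D, with the SE from limma, for the 2 tested miR-34 members and the 11 tested p53-linked miRNAs, coloured by list; the dotted line is the median of all 120 tested miRNAs and the dashed lines mark a 2-fold change. All points lie between −0.50 and 0.22, inside the 2-fold lines.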

How the data were processed

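MiRNA levels were measured in LLC1 cells in 2D and lr-ECM 3D culture on 6 one-colour arrays labelled with Cy3, and groups came from the sample labels. Spot intensities in the deposited files are linear and were background-subtracted and detrended by the authors with Feature Extraction 10.7.3.1. Other columns used were flags and, for some alternatives, other intensities. The normexp setting started from median spot and background signals, and another setting from the software's total gene signal. The deposited series table holds the authors' log2 values, which equal the log2 of floored intensities plus a constant per array within 0.049.

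Control and outlier spots (190 to 369 per array) were left out, spots of a probe were averaged, each array was scaled to the mean of the 2D arrays, and signals were floored at 1. A miRNA was read by its brightest probe. Tested miRNAs entered limma 3.58.1 in R 4.3.3 (two-sided, Benjamini-Hochberg over 120). Single values were compared with exact permutation tests. The fit was tested on simulated data. The members, the p53-linked lists (miR-17-5p and miR-605-5p, not matched by name, not analysed here) and the naming rule, which took all family members, the extremes of each list and the 3 most correlated miRNAs, were chosen with earlier results of these data known. The number of arrays limits the precision.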

Additional observations from a re-analysis of the deposited data

How the results depend on the processing

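Counts of called family members and of called p53-linked miRNAs were 0 in 20 of 21 alternatives and 2 each with no filter. With no filter, 32 of all 566 miRNAs (5.65%) were called. The filter on all 6 arrays called 0 of all tested miRNAs, so its 0 is not particular to the members. The difference of miR-34b-5p turned to 0.036 under scaling to the 75th percentile of detected probes, 0.58 with the deposited log2 values, 1.08 unscaled and 0.38 with normexp, and that of miR-34c-5p to 0.35, 0.86 and 0.25 in the latter 3; these settings also moved the median over all tested miRNAs, and no other cause was tested. Leaving out each array in turn gave −0.41 to −0.05 and −0.74 to −0.08, the smallest without 2D replicate 2. The change of miR-34a-5p relative to the miR-34b/c 5p arms turned to 0.22 with the total gene signal and 0.054 with a floor at 10, and the share of 5p spots ranged from −0.27 to 6.84 points with an array left out. The change of miR-34c-5p relative to miR-34b-5p kept its sign in all 16 alternatives. Settings that only apply a factor to a whole array, and the replicate block, had to return the reported −0.21. Without 2D replicate 2 the change was −0.03.

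Same-numbered replicates deviated with correlations of −0.32, −0.37 and 0.16, so a pairing by number was not seen. With 3 arrays per group and a dim 2D replicate 2, this check cannot exclude a pairing. With the replicate number as a block, the differences of miR-34b-5p and miR-34c-5p were −0.28 and −0.50 (limma adjusted p = 0.379 and 0.365), and 12 rather than 14 of all tested miRNAs were called. The number of calls was 32 without 2D replicate 2, 25 with the 75th percentile over all probes, 27 without scaling and 0 with a filter on all 6 arrays, under which both miR-34 members were still tested. No slide or scan-day block could be fitted. Signals near background limit every statement on the 3p arms, miR-34a-5p and miR-449.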
